A study of Azumapecten farreri with 9 samples.

Results

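Normal exosomes were compared with phosphate-buffered saline (PBS) for their effect on the small RNA of hemocytes, the circulating immune cells of bivalves, in Azumapecten farreri (Chlamys farreri), the Zhikong scallop. The comparison used 6 of the 9 libraries of the study: 3 from scallops injected with normal exosomes and 3 from scallops injected with PBS. The other 3 libraries, from scallops that received exosomes tied to lipopolysaccharide (LPS, a component of bacterial outer membranes), entered the shared estimate of the spread and are given beside the results. The sources used here do not give the donors, dose or timing of the exosomes, or the number of scallops behind a library. All lines of the deposited table were taken, lines with the same sequence were merged, and a sequence was tested where its normalized value was 10 or more in at least 3 of the 6 libraries. Of 396 sequences, 255 did not reach this level, and the rest, called tested sequences here, held 99.99% of the signal in the 6 libraries.

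MicroRNAs (miRNAs) are short RNAs that guide Argonaute proteins to messenger RNAs, mainly through the seed, bases 2 to 8 of the miRNA, and lower the output of the messages they pair with. Exosomes are vesicles shed by cells, bounded by a membrane, with proteins and RNA inside, miRNAs included. Scallops lack antibodies, and their hemocytes take up particles and secrete defence proteins. An RNA measured in hemocytes after an injection may have been made there or delivered, and these libraries do not tell these sources apart.

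The following sequences carry the results. They are printed as deposited, 5′ to 3′ with T for U, and capitals mark the seed. The names are those of the deposited table: a prefix such as mle, lgi, cte or cel is the species of the registered miRNA, a suffix marks how the scallop sequence differs from it, and names starting with PC- are predicted candidates with no registered name. The first 6 were lower with normal exosomes. The longer form of miR-31-5p, listed under a nematode miR-72 name, holds it whole and shares its seed, as the shorter form does for miR-1994a-3p.
miR-31-5p: aGGCAAGAtgttggcatagctga
longer form of miR-31-5p: aGGCAAGAtgttggcatagctgaaa
miR-1994a-3p: tGAGACAGtgtgtcctcccttg
shorter form of miR-1994a-3p: tGAGACAGtgtgtcctccct
miR-278: tCGGTGGGactttcgttcgct
PC-3p-18918_54: aCCATGAAttcaacactgcagt
The next 4 were higher with normal exosomes, and both miR-1990 sequences share 1 seed.
mle-miR-1990-3p: cGGGACTAcgtcaactacttg
lgi-mir-1990-p3: cGGGACTAcgtcaactacttgc
PC-3p-9728_126: tTAGGCCAgaattacttccga
PC-5p-3290_436: cCTTATCActtgttcgtcacagt

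The values of a library were whole multiples of 1 step for 99.55% of the values above 0, within 0.01 reads. That share is partly built in, because the step was chosen to make most values whole multiples. The step was read as the worth of 1 read. On that reading the PBS libraries held 7852801, 10487719 and 9485390 reads and the normal exosome libraries 11118473, 12319038 and 15596034, so every normal exosome library was the deeper. The lowest values listed stood at 5 reads in 8 of the 9 libraries, and a value of 0 may hide up to 4 reads. In normal exosomes replicate 3 the lowest value came to 3.33 reads, which is not a whole number, so the read numbers are approximate. PBS replicate 1 stood apart on the second principal component, at -10.46 against -5.31 to 6.01 in the other 8 libraries. On the first component, which carries more of the variance, it lay inside the range of the others, at 4.72. The extremes there were LPS exosomes replicate 1 at 11.65 and normal exosomes replicate 2 at -9.16. Several results below are given with and without PBS replicate 1. The marker lists used here hold no hemocyte miRNA, so the labelled cell type was not checked against markers.

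Few sequences passed the test, and both that did were lower with normal exosomes. Over the tested sequences, limma with Benjamini-Hochberg adjustment called 2 at an adjusted p under 0.05, or 1.42%, with 0 higher and 2 lower. At an unadjusted p under 0.05 there were 22 sequences, 10 higher and 12 lower. The median log2 difference over all tested sequences was 0.00, with 70 positive and 71 negative. In 35 tested sequences, or 24.8%, the 3 normal exosome values lay wholly above (18) or below (17) the 3 PBS values. The number called ran from 2 to 9 over the alternative settings, and only miR-31-5p and miR-1994a-3p were called in at least 24 of the 25. Scaling the libraries to equal totals called 1 higher and 6 lower and moved the median of all sequences to -0.23, and quantile normalization called 1 higher and 4 lower.

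**Figure D1:**
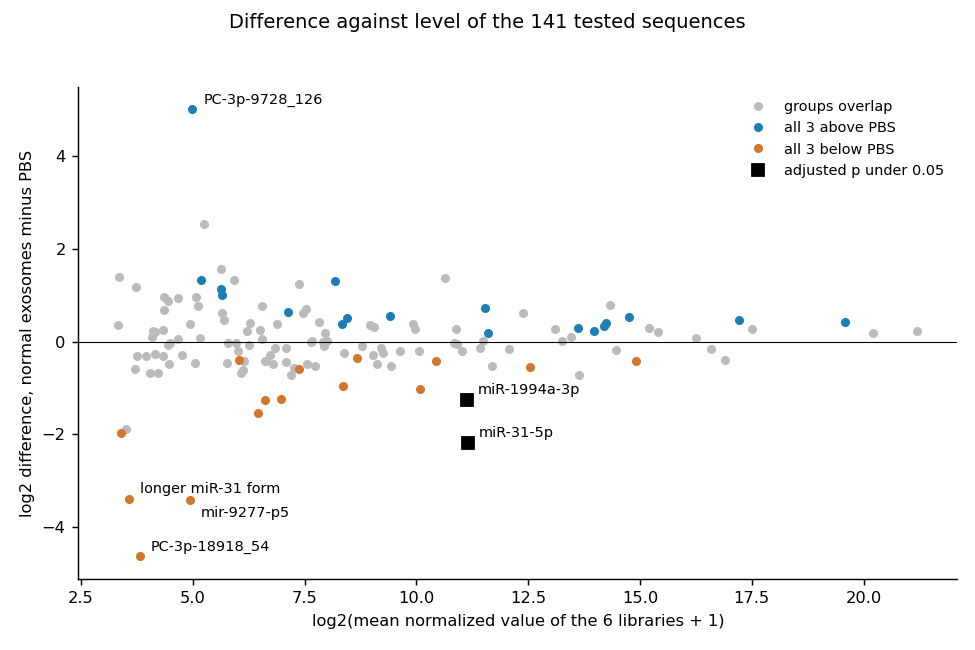
Each point is 1 tested sequence, with the log2 of its mean normalized value plus 1 over the 6 libraries on the horizontal axis and the log2 difference of normal exosomes minus PBS on the vertical axis. The 2 black squares, miR-31-5p at -2.18 and miR-1994a-3p at -1.25, lie well inside the range of levels, while the widest differences, from -4.63 to 5.01, belong to sequences near the low end.

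miR-31-5p fell the most of the sequences that passed the test. In vertebrates miR-31 has been studied in epithelial growth, muscle and T cells. Its normalized values were 1029, 816 and 633 with normal exosomes and 3487, 3312 and 4290 with PBS. The groups did not overlap, and the highest of the normal exosome libraries lay below the lowest of PBS. The log2 difference was -2.18 (SE 0.24), 4.53-fold lower, with a limma adjusted p of 0.00075. The call held in 25 of 25 alternative settings, with log2 differences that were negative in each.

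The longer form of miR-31-5p, extended at the 3′ end, was listed at 0, 6.49 and 0 with normal exosomes and at 21.6, 15.4 and 22.1 with PBS. It reached the filter only through the PBS libraries, so lower values with normal exosomes were fixed in advance. Its limma adjusted p of 0.073, which missed the threshold, is therefore no support for the fall of miR-31-5p. The longer form came to 0.620%, 0.466% and 0.514% of miR-31-5p in the PBS libraries and to 0.795% in normal exosomes replicate 2, the one library of its group that listed it. Summed as a seed family, both forms gave 1029, 822 and 633 against 3509, 3327 and 4312.

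miR-1994a-3p, a miRNA whose number was first given in molluscs and annelids, fell by 1.25 on the log2 scale (SE 0.19, 2.38-fold lower, limma adjusted p = 0.0051). Its values were 1220, 1197 and 1544 with normal exosomes and 2843, 3081 and 3483 with PBS. The groups did not overlap. The call held in 24 of 25 alternative settings and was lost under quantile normalization (adjusted p = 0.056). The shorter form was 608, 629 and 867 against 985, 1569 and 1796, a log2 difference of -1.02 (SE 0.26, adjusted p = 0.063). It made up 49.9%, 52.5% and 56.2% of the longer sequence with normal exosomes and 34.6%, 50.9% and 51.6% with PBS, where PBS replicate 1 was the low one. Without PBS replicate 1 the shorter form passed the threshold, at -1.28 with an adjusted p of 0.0086.

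miR-278, which in Drosophila acts in energy balance through the fat body, was 37.5, 42.6 and 48.2 with normal exosomes and 80.0, 145 and 171 with PBS. Its log2 difference was -1.54 (SE 0.35) with an adjusted p of 0.060 over sequences, and without PBS replicate 1 it was -1.86 with an adjusted p of 0.0067. A miR-263 sequence, from a family that protects sensory bristles in Drosophila, was 85.1, 88.1 and 51.7 against 162, 172 and 185 (log2 -1.23, adjusted p = 0.11). It shares its seed with mle-miR-96a-5p, which is given below. The other miR-263 sequence, mle-miR-263a-5p, has another seed and overlapped between the groups at 331, 256 and 198 against 188, 222.8 and 163. lgi-miR-10, of the family that lies in Hox clusters, was 262, 242 and 159 against 296, 584 and 427 (log2 -0.95, adjusted p = 0.25). None of these sequences passed with the values as deposited, while scaling to equal totals called miR-278, the first miR-263 sequence and lgi-miR-10.

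miR-279, which in Drosophila limits signalling through JAK and STAT, rested on 1 library. It was 8040, 8801 and 10410 with normal exosomes and 7905, 17419 and 23429 with PBS, so PBS replicate 1 lay below all normal exosome libraries. With it the log2 difference was -0.71 and the adjusted p 0.35, and without it they were -1.16 and 0.0050. Leaving out PBS replicate 1 raised the number of called sequences from 2 to 5, all lower: miR-31-5p, both miR-1994a-3p forms, miR-278 and miR-279.

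**Figure D2:**
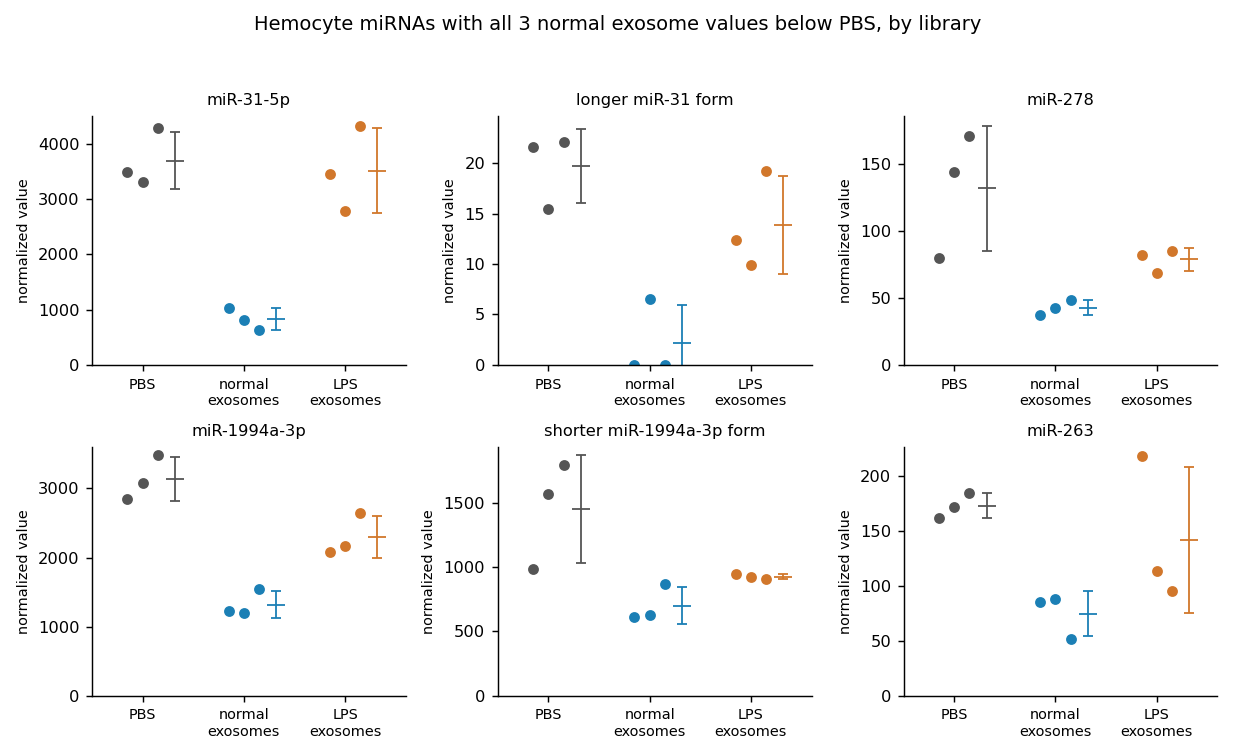
Each panel shows 1 sequence with its normalized value per library (points), and the mean with its SD (bar, n = 3) for PBS, normal exosomes and LPS exosomes. miR-31-5p sits at 633 to 1029 with normal exosomes and at 2783 to 4318 in the other 6 libraries, and the 5 other sequences also lie below all PBS libraries with normal exosomes. For the longer form of miR-31-5p the filter fixed this in advance.

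PC-3p-18918_54, a predicted candidate, was listed at 0 in all 3 normal exosome libraries and at 11.9, 31.98 and 34.7 with PBS. It was listed at 0 in the 3 LPS exosome libraries too, so PBS was the one group that held it. It reached the filter only through the PBS libraries, so it had to be lower with normal exosomes. Its limma adjusted p of 0.060 over sequences is therefore no support. PC-5p-2220_666, another candidate, was 47.7, 73.2 and 51.0 against 177, 122.4 and 114 (log2 -1.25, adjusted p = 0.063). An arm listed from a bat hairpin, efu-mir-9277-p5, was 5.68, 0 and 16.1 against 56.2, 38.6 and 60.9 (adjusted p = 0.18).

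Among sequences that were higher with normal exosomes, none passed the threshold over sequences. PC-3p-9728_126 had the largest difference, at 51.1, 55.6 and 72.7 with normal exosomes against 0, 5.51 and 0 with PBS. It reached the filter only through the normal exosome libraries, so it had to be higher there. Its limma adjusted p of 0.060 is therefore no support. The LPS exosome libraries held 17.5, 7.40 and 0, below all 3 normal exosome libraries. Because PBS is near 0, its fitted log2 difference of 5.01 depends on the pseudocount. PC-5p-3290_436 was 61.3, 67.7 and 72.7 against 30.3, 37.5 and 23.1 (log2 1.15, SE 0.32, adjusted p = 0.073).

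Several abundant miRNAs were also above PBS in all 3 normal exosome libraries without passing the threshold. mle-miR-2a-3p, of the miR-2 family that protostomes carry in a cluster with miR-71, was 37067, 32044 and 28659 against 21662, 20896 and 25161 (log2 0.53, adjusted p = 0.073). miR-87, which in Drosophila acts in the regrowth of dendrites, was 3543, 3285 and 4165 against 1917, 1962 and 2903 (log2 0.72, adjusted p = 0.081). let-7c, a developmental timing miRNA, was 171734, 175142 and 180161 against 88536, 147891 and 153952 (log2 0.48, adjusted p = 0.26), and without PBS replicate 1 its log2 difference was 0.22. Smaller gaps were those of PC-3p-33_160524 (log2 0.39), mle-miR-745a-3p (0.34) and PC-3p-45_111826 (0.31), which came to 0.17, 0.12 and 0.08 with equal totals. Sequences set lower in the same way were PC-3p-66_67138 (-0.53) and cte-miR-92b (-0.42, or -0.24 without PBS replicate 1), which belong to 1 set of sequences held within one another, and adjusted p-values of these 5 ran from 0.11 to 0.26.

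Grouping sequences by seed gave more calls. Of 100 seed families, 8 passed (8%), 3 higher and 5 lower. In 3 of the 8, those of miR-1990, PC-3p-9728_126 and PC-3p-18918_54, the values reached the filter only through the group where they are high, so these had to differ and are given as values. The other lower families were those of miR-31, miR-1994a, miR-278 and PC-5p-2220_666, with limma adjusted p-values of 0.00043, 0.0029, 0.018 and 0.026, and the other higher family was PC-5p-3290_436 (0.049). That higher family was not called under equal totals or quantile normalization, or with 6 libraries only. It was also lost with the replicate number as a block and when any single library was left out. Families of 1 sequence hold the same values in both fits, and their calls differ because fewer features were tested and the spread was pooled over others.

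miR-1990 is known from molluscs and annelids. Its 2 listed sequences summed to 15.9, 23.2 and 21.0 with normal exosomes and were listed at 0 in all 3 PBS libraries. Each sequence alone failed the filter on low values, and they were tested only summed or with no filter. The inferred reads of mle-miR-1990-3p were 16, 22 and 16 with normal exosomes, and those of lgi-mir-1990-p3 were 12, 28 and 44. LPS exosome libraries held 26.2, 22.2 and 19.3 of the family, so it was listed in all 6 exosome libraries and in 0 PBS libraries. LPS exosomes replicates 2 and 3, which listed the family, held 7340939 and 7017983 inferred reads, fewer than every PBS library. The part of depth was not tested. Of the 8 families, 4 to 7 were called when single libraries were left out, and miR-31 and miR-1994a were called whichever library was left out.

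**Figure D3:**
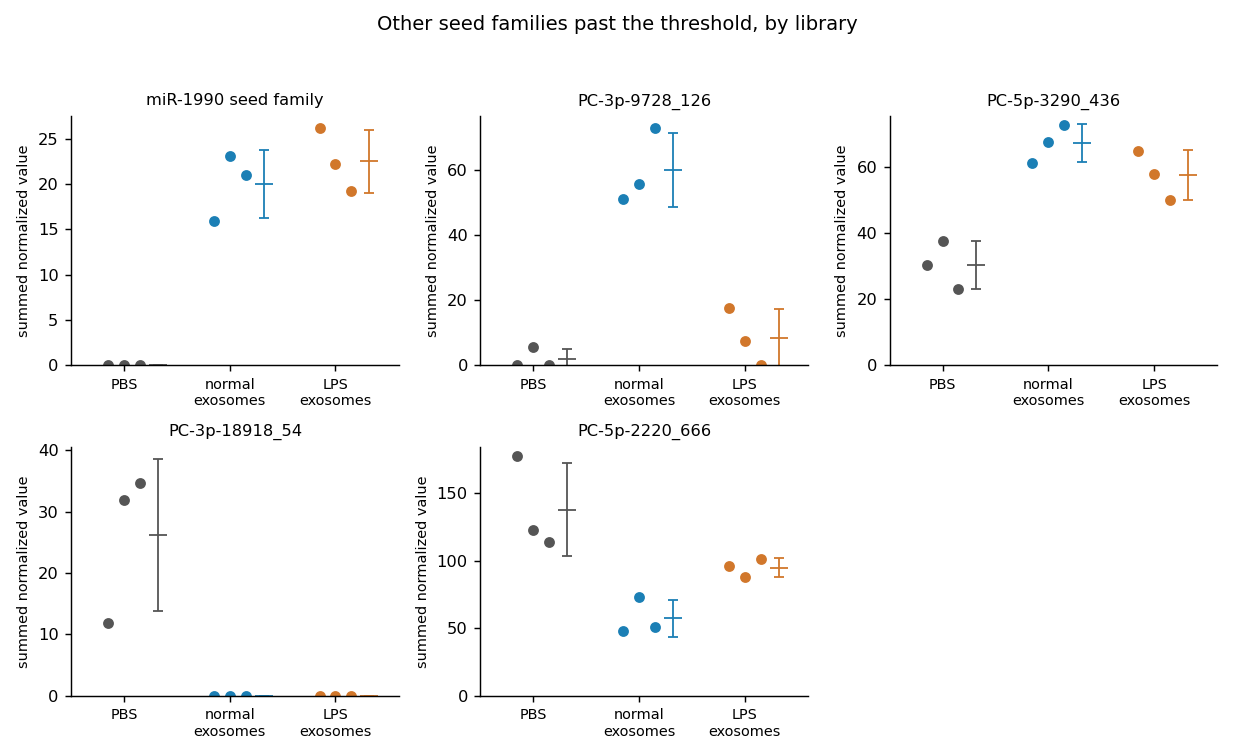
Each panel shows the summed normalized value per library (points), and the mean with its SD (bar, n = 3), for 5 of the 8 called seed families. The miR-1990 family is at 0 in the PBS libraries and at 15.9 to 23.2 with normal exosomes, while PC-3p-18918_54 is at 0 in both exosome groups.

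Of the 396 sequences, 7 were listed in all 3 libraries of one group and at 0 in all 3 of the other. The 4 with normal exosomes were the 2 miR-1990 sequences, PC-5p-24775_36 and PC-3p-21485_45. The 3 with PBS were PC-3p-18918_54, PC-5p-30258_26 and PC-3p-31246_25. Only PC-3p-18918_54 reached the filter, and the others held between 5 and 68 inferred reads in any library that listed them.

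Of these, PC-3p-21485_45 and PC-3p-31246_25 are alike in sequence and were listed in opposite groups. Both resemble PC-3p-552_3225, which was listed in all 9 libraries. Capitals again mark bases 2 to 8.
PC-3p-552_3225: tGTAATCTttgcactcccc
PC-3p-21485_45: tGTAATCTgtgcacttccc
PC-3p-31246_25: tGTAATCTgtacactcccc
PC-3p-1990_749: tGTAATTTgtgctctcctc
Positions are counted from 1 at the 5′ end, with the base of PC-3p-552_3225 first. PC-3p-21485_45 differs from it by T9G and C16T, and PC-3p-31246_25 by T9G and G11A. PC-3p-21485_45 was 13.6, 8.34 and 23.8 with normal exosomes and at 0 in the other 6 libraries, and PC-3p-31246_25 was 10.8, 6.62 and 9.46 with PBS and at 0 in the other 6. Another look-alike, PC-3p-1990_749, was at 313, 234 and 146 with LPS exosomes and at 0 in the other 6. PC-3p-1990_749 differs from PC-3p-552_3225 by C7T, T9G, A13T and C18T. PC-3p-1430_1100 differs by C7T, T9G, A13G and C18T, and was listed in all 9 libraries. PC-3p-10409_117 differs by C18T and was listed in 8. Of 396 sequences, 2 were listed in the 3 normal exosome libraries alone, 2 in the 3 PBS libraries alone and 1 in the 3 LPS exosome libraries alone, so 3 of those 5 came from this one set of look-alikes. The other look-alikes named here were not confined to 1 group. What RNA the look-alikes derive from was not tested, and no genome was used here.

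Levels with normal exosomes were also set against those with LPS exosomes. This contrast uses the same normal exosome libraries as above, in which both called miRNAs were low, so it is no independent support for those calls. For LPS exosomes minus normal exosomes, 6 tested sequences passed (4.26%), 5 higher and 1 lower. miR-31-5p was 3448, 2783 and 4318 with LPS exosomes, 2.09 higher on the log2 scale (SE 0.24, limma adjusted p = 0.0011) than with normal exosomes, and 1 of the 3 values lay inside the PBS range of 3312 to 4290, 1 below and 1 above it. That difference was called in 13 of 13 alternative settings. miR-1994a-3p was 2073, 2167 and 2649 with LPS exosomes, between the other groups, and 0.80 higher than with normal exosomes (SE 0.19, adjusted p = 0.045), which was called in 4 of 13 alternatives. That call was lost under quantile normalization and when any one normal exosome or LPS exosome library was left out. It was also lost without PBS replicate 2 and without PBS replicate 3. The other 4 called, mle-miR-263a-5p, mle-miR-10b-5p, mle-miR-216b-5p and PC-3p-83_47257, had adjusted p-values of 0.48 to 0.88 between normal exosomes and PBS.

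The bulk of the hemocyte profile did not pass any test between normal exosomes and PBS. The 10 sequences of highest mean held 95.2% ± 0.230 (SD, n = 3) of the signal with normal exosomes and 94.5% ± 0.794 with PBS. PC-5p-1_12698927, a candidate that holds a miR-125 sequence whole, made up 44.7% ± 2.30 against 44.3% ± 1.63. mle-miR-184-3p made up 22.3% ± 1.06 against 22.8% ± 0.244, and lgi-miR-100 15.3% ± 0.883 against 13.3% ± 1.79. lgi-miR-100 was above PBS in all 3 normal exosome libraries at 901737, 911988 and 850182 against 478193, 826024 and 719531 (log2 0.43, SE 0.23, limma adjusted p = 0.42). Quantile normalization set this difference to 0, as it must for a sequence of the same rank in every library, so that value does not bear on stability. The log2 differences of PC-5p-1_12698927 (0.24), mle-miR-184-3p (0.19), mle-miR-2b-3p (0.08) and mle-miR-71-5p (0.22) changed sign or went to 0 under another scaling. PC-5p-1_12698927 and mle-miR-184-3p also held the same rank in every library, so a 0 under quantile normalization was fixed for them too. lgi-miR-92 was 112312, 89383 and 109906 against 198723, 116705 and 107969, where PBS replicate 1 was far above the others, and its log2 difference of -0.39 was -0.12 without it. The remaining 4 of the 10 were mle-miR-133-3p (0.27), let-7c, mle-miR-96a-5p (-0.15) and mle-miR-1175-3p (0.30), with adjusted p-values of 0.26 to 0.64.

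Read as groups of related miRNAs, no list held more than 1 called sequence. In the let-7 complex (let-7, miR-100, miR-99 and miR-125), 0 of 13 tested sequences were called, 9 were positive and the median log2 difference was 0.48, beside 0.00 over all tested. It was 0.25 with equal totals and 0.22 without PBS replicate 1. In the miR-2 and miR-71 cluster, 0 of 11 were called, 9 were positive and the median was 0.23, or 0.00 with equal totals and 0.45 without PBS replicate 1. The miR-92 family had 0 of 5 called and a median of -0.24. Of the numbers miR-1984 to miR-1999, 1 of 4 tested was called, miR-1994a-3p, with a median of -0.37. Of the families studied in immunity, mostly in vertebrates, 1 of 9 was called, miR-31-5p, with a median of -0.30, or -0.59 without PBS replicate 1. mle-miR-34-5p was 355, 567 and 470.5 against 702, 457 and 789, and mle-miR-29a-3p 102, 82.5 and 93.7 against 57.3, 90.4 and 133.4, with overlap in both. The other invertebrate families had 0 of 13 called (median -0.14), the miR-10 family 0 of 2 (-0.58), the predicted candidates 0 of 46 (-0.02) and the unregistered hairpin arms 0 of 6 (-0.38).

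Lists named for other tissues showed no called sequence either. The muscle list, miR-1 and miR-133, had 0 of 4 called, a median of 0.00 and summed values of 179163 to 230113 with normal exosomes and 132549 to 206255 with PBS, and mle-miR-133-3p was among the 10 most abundant sequences. The neural list rested on lgi-miR-7, at 728, 580 and 207 against 608, 494 and 536, its one tested member. miR-124 was listed at 0 in the 6 libraries. Of miR-9, mle-miR-9-3p was at 6.62 in PBS replicate 2 and mle-miR-9-5p at 5.25 in PBS replicate 3, both below the filter. Each was at 0 in the rest of the 6. The epithelial and sensory list had 0 of 5 called and a median of -0.52, and its summed values ran from 74498 to 112382 against 99175 to 111528. The gut and endocrine list had 0 of 4 called (median 0.42, or -0.28 without PBS replicate 1), with miR-375 at 121, 136 and 129 against 136, 171 and 121. aca-miR-122-5p, the one tested member of the vertebrate blood and liver list, was 135, 524 and 62.2 against 21.6, 123.5 and 119. Its log2 difference of 1.25 was 0.41 without normal exosomes replicate 2 and 0.44 without PBS replicate 1. The part of other cell types in the results was not tested. In bulk RNA, fewer cells of a type and less RNA per cell cannot be told apart.

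**Figure D4:**
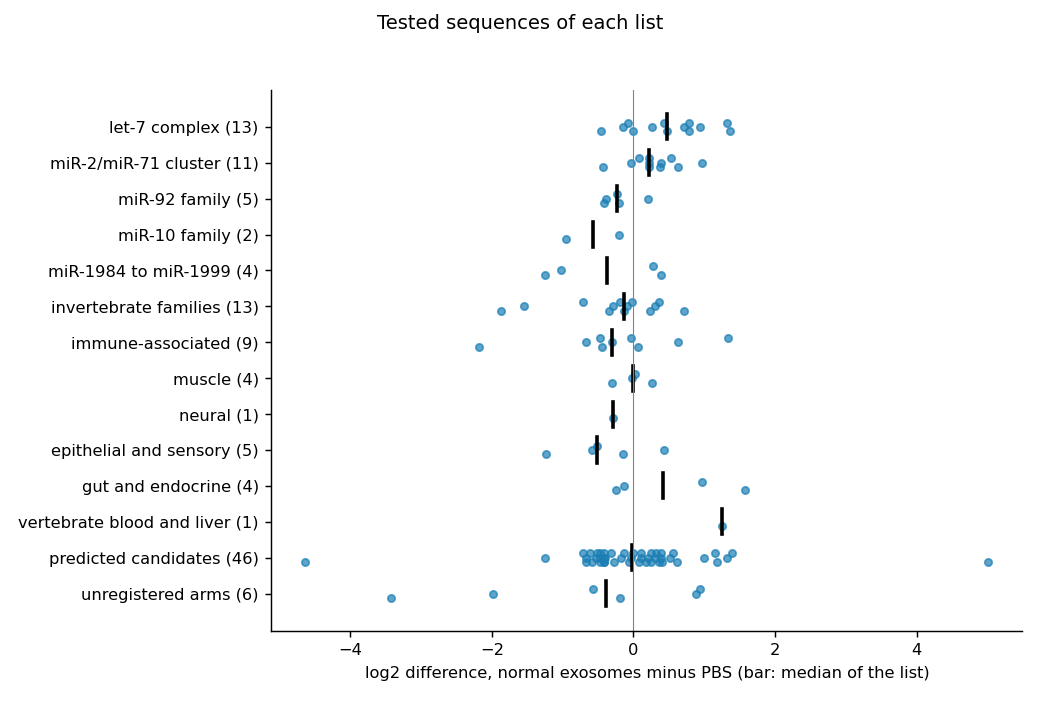
Each point is 1 tested sequence of a list, placed by its log2 difference of normal exosomes minus PBS, with the number tested in brackets and a bar at the median of the list. The medians run from -0.58 for the miR-10 family to 1.25 for the 1 tested sequence named from vertebrate blood and liver, which rests on normal exosomes replicate 2 and PBS replicate 1.

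Sequences held whole within one another were compared as forms of 1 miRNA. There were 18 such sets with 2 or more tested sequences, and in 10 of them all members had a log2 difference of the same sign. Both forms of miR-31-5p (-2.18 and -3.39) and of miR-1994a-3p (-1.25 and -1.02) were lower, but the filter fixed the sign of the longer miR-31-5p form. lgi-miR-100 (0.43) and its form shortened at the 5′ end (1.37) were both positive, at 0.20 and 0.49 without PBS replicate 1. By contrast bmo-miR-281-3p and the cin-miR-281-3p form lay on opposite sides, from -1.88 to 0.36 on the log2 scale, with neither called.

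Like most tested sequences, most of those whose groups did not overlap had the length of miRNAs. All 18 that were higher and 15 of the 17 that were lower had 20 to 24 bases, as had 83.7% of all tested sequences. Median GC content was 46.8% in the 18 and 55.0% in the 17, beside 47.8% over all tested.

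Some rare sequences differed from an abundant miRNA by 1 base. To count as a pair, the partner had to be several times as abundant, with 5′ ends within 1 base. Pairs that differed in the last shared bases were not taken, and each rarer sequence kept its most abundant partner. Among tested sequences, 11 could be paired with a more abundant one that differs by 1 base, and 4 of these carry G9T, with positions counted from the 5′ end of the rarer sequence. In each of the 4 the 2 lowest libraries were PBS replicate 1 and LPS exosomes replicate 1, which held for 0 of the other 7 pairs. The clearest pair is that of miR-317, in which capitals mark the changed base.
mle-miR-317-3p: tgaacacaGctggtggtatctttt
PC-3p-824_1990: tgaacacaTctggtggtatctttt
PC-3p-824_1990 stood at 17.5%, 22.6% and 24.9% of mle-miR-317-3p with normal exosomes, at 2.07%, 16.9% and 17.1% with PBS, and at 2.90%, 16.6% and 18.01% with LPS exosomes. The other PBS libraries lay close to the lowest normal exosome library. The miR-100 variant was 3.15%, 2.996% and 2.04% of lgi-miR-100 against 1.06%, 2.91% and 2.97% with PBS, where replicate 1 alone was low. The let-7c variant, dre-let-7c-5p, was 47.1, 40.6 and 60.8 with normal exosomes and 9.73, 24.8 and 27.3 with PBS (log2 1.33, adjusted p = 0.26). It took 0.0274%, 0.0232% and 0.0338% of let-7c against 0.0110%, 0.0168% and 0.0177%, with no overlap. That variant starts 1 base earlier than let-7c, and against cte-let-7, which has its start and length and differs by G9T alone, it came to 23.2%, 13.3% and 33.9% against 8.82%, 20.8% and 14.4%, where the groups overlapped.

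**Figure D5:**
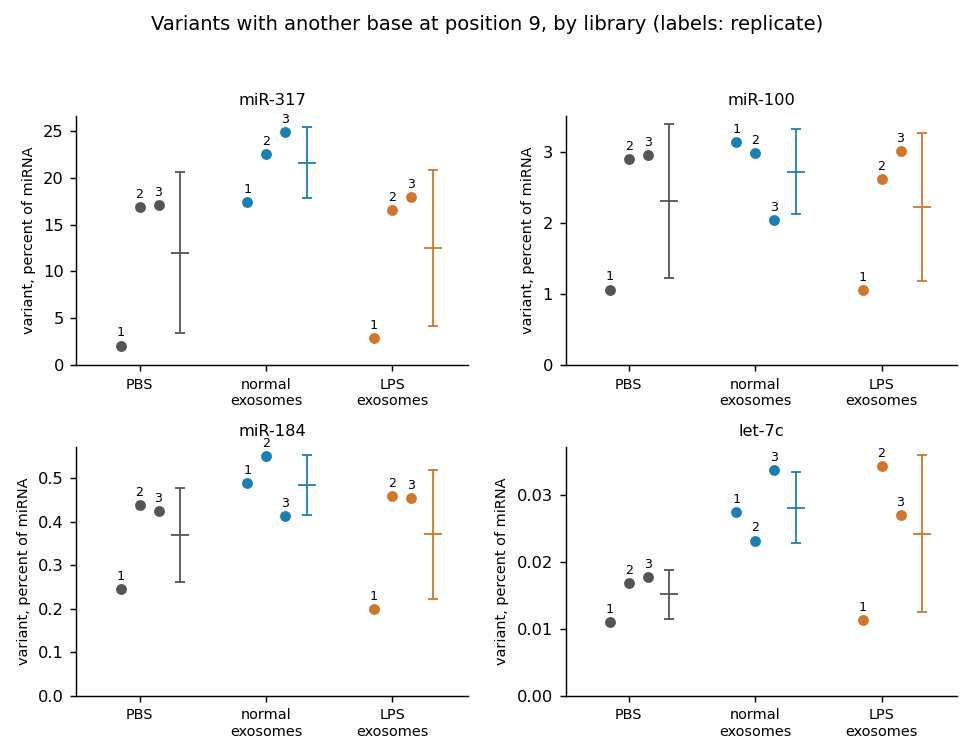
Each panel shows a sequence with G9T as a percent of its more abundant partner per library (points, numbered by replicate), with the mean and SD (bar, n = 3) for PBS, normal exosomes and LPS exosomes. PBS replicate 1 and LPS exosomes replicate 1 are the 2 lowest libraries in all 4 panels, at 2.07% and 2.90% in that of miR-317.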

How the data were processed

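Small RNA of hemocytes was sequenced in 9 libraries, 3 per group, prepared with a TruSeq kit for small RNA and run on an Illumina HiSeq. Per the labels' protocols, the program ACGT101-miR took out adapter dimers, junk reads, those of low complexity, repeats and other RNA families. For the aligner, genome build and miRBase release, the sources used here give no name. The deposited values are a signal per sequence and library, which the authors' file headers call normalized counts without a method. The title prefix NOR was read as normal exosomes from the design text.

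Of 417 lines, 41 shared a sequence with another line and were merged into 396 sequences. Values were tested as log2(value + 1) in R 4.3.3 by limma 3.58.1, using its robust and trend options with statmod 1.5.0, with all 9 libraries fitted together as 3 group means and Benjamini-Hochberg adjustment over the tested sequences, or over 100 seed families, for which values of sequences with the same bases 2 to 8 were summed. A feature was called at an adjusted p under 0.05. Fold changes are on the log2(value + 1) scale, which understates those of low sequences. The step was tested on simulated data, and its check did not accept the inferred reads as recovered counts. Figures were drawn with matplotlib 3.10.9 from tables made in Python 3.11.15 with pandas 2.3.3.

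Whether the libraries of 1 group represent different scallops is not stated in the labels, so p-values reflect only how these libraries vary, which could be technical. With 3 libraries on each side, the smallest p of an exact permutation test is 0.1. Read numbers are inferred and limit precision by counting error only.

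Sequences named are those called, the next by p to make 20, the 10 of highest mean, the 3 tested of highest mean in each of 14 lists, those at 0 in one group only, and forms of called sequences. PC-3p-1990_749, PC-3p-1430_1100, PC-3p-10409_117, miR-281 and the G9T pairs were chosen after their values were seen. The members and lists were chosen with earlier results of these data known. Alternatives covered scaling, filters, pseudocounts, values of 0, moderation, libraries and the unit of testing.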

Additional observations from a re-analysis of the deposited data

Results flagged for a closer look

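For miR-31-5p and miR-1994a-3p, the effects of the 2 kinds of exosomes against PBS differed in the test of LPS exosomes minus normal exosomes. LPS exosomes minus normal exosomes gave 2.09 on the log2 scale for mle-miR-31-5p (limma adjusted p = 0.0011) and 0.80 for mle-miR-1994a-3p (adjusted p = 0.045), higher in 3 of 3 LPS exosome libraries for each. The first was called in 13 of 13 alternatives and the second in 4 of 13, and both share their normal exosome libraries with the comparison that chose these miRNAs.

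Below the filter, 4 sequences were listed in all 3 normal exosome libraries and at 0 in the 3 PBS libraries. Their mean values with normal exosomes were 8.29 for mle-miR-1990-3p, 11.7 for lgi-mir-1990-p3, 6.20 for PC-5p-24775_36 and 15.2 for PC-3p-21485_45. The miR-1990 sequences averaged 11.3 each with LPS exosomes, while PC-5p-24775_36 and PC-3p-21485_45 were at 0 there. The normal exosome libraries were deeper than the PBS libraries by inferred reads, and the part of depth was not tested for any of the 4.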

How the results depend on the processing

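The number of sequences called between normal exosomes and PBS was 2. It was 7 with equal totals, 5 with quantile normalization, 4 with no filter on low values, 9 with a pseudocount of 10, 5 with values of 0 set to 4 reads, 8 without trend and robust settings, 4 with 6 libraries only, and 6 with nested forms summed. In each of these the calls leaned lower, and miR-31-5p was among them. Under several settings the added calls included PC-3p-9728_126 and PC-3p-18918_54, which reached the main filter only through the group where they are high. Leaving out single libraries gave 2 to 5, with 5 without PBS replicate 1. Of alternatives chosen after seeing the data, leaving out normal exosomes replicate 2 and PBS replicate 1 together gave 6, and the 6 libraries at equal totals gave 4. The seed families called, 8 in all, fell to 4 with a mean of 50 or more, which tests fewer families, to 5 with 6 libraries only and to between 4 and 7 without single libraries. LPS exosomes minus normal exosomes called 6 sequences, 2 with quantile normalization and 1 to 8 without single libraries. Otherwise the cause was not tested.

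The labels do not say that replicate numbers pair libraries, and not every pair passed the check: deviations of same-numbered libraries from their group means correlated at 0.04, 0.32 and 0.13 between normal exosomes and PBS, at -0.07, -0.30 and -0.35 between normal and LPS exosomes, and at 0.19, 0.06 and -0.02 between PBS and LPS exosomes. With the replicate number as a block, 2 sequences and 6 seed families were called, and 7 sequences for LPS exosomes minus normal exosomes. The planned count model was not run, because the reads are inferred from normalized values. With 3 libraries per group and a floor of 5 inferred reads in most libraries, differences in sequences listed near 0 were not resolved well.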

Other observations

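Among sequences named only from vertebrates, under numbers that no invertebrate line carries, levels varied between libraries of 1 group. Unregistered hairpin arms and sequences ending in CCA were left out of this set. The 56 sequences kept made up 136.5, 411 and 83.9 in each 1000000 units of the signal with normal exosomes and 74.2, 268 and 165 with PBS. Normal exosomes replicate 2 listed 46 of the 56, and the other libraries listed 15 to 32. Of the 15 tested, 0 were called, and normal exosomes replicate 2 was the highest of the 9 libraries for 10. Their median log2 difference was 0.68, and it was -0.25 without normal exosomes replicate 2 and -0.12 without PBS replicate 1. One of them, aca-miR-148a-3p, was 35.2, 139 and 10.5 with normal exosomes and 0, 27.6 and 9.46 with PBS.

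Short sequences followed another library. For all 18 tested sequences of 16 to 19 bases, normal exosomes replicate 3 was the highest of its group, against 36 of 118 sequences of 20 to 24 bases. Sequences of 16 to 19 bases made up 0.109%, 0.126% and 0.261% of the signal with normal exosomes and 0.134%, 0.174% and 0.240% with PBS.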
